A study of Bos taurus with 9 samples.

Results

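MAC-T cells, an immortalised line of bovine mammary epithelial cells, were compared between 6 libraries made after treatment with LPS and 3 libraries of untreated cells. The LPS group joined the 3 libraries collected at 6 h post-induction (hpi) with the 3 collected at 12 hpi, both after 50 ng/μL LPS, and the untreated group was the 3 libraries collected at 0 h. Together these are all 9 libraries of the series. The question was which long non-coding RNAs (lncRNAs) and circular RNAs (circRNAs) differed with LPS whatever the time, and which of these differences were present at both time points, here called sustained. All groups shared the same cell line and no gene was altered in any of them. One 6-well plate of cells was collected per time point, so LPS, time in culture and plate cannot be told apart. The labels do not say whether the replicates were separate wells or cultures, and p-values measure only the spread between these libraries, which may be technical. Values of coding genes were not analysed here, and the mammary identity of the cells was not checked from markers.

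LPS is the outer-membrane glycolipid of Gram-negative bacteria. It is sensed by Toll-like receptor 4, which acts through NF-kB and MAP kinases to switch on cytokines and chemokines, and in the udder it is used to mimic coliform mastitis. LncRNAs are transcripts with little coding potential. Antisense ones lie on the strand opposite a gene, sense overlapping ones share a strand and bases with a gene, and intergenic ones (LINC) lie between genes. CircRNAs are made by back-splicing, in which the end of an exon is joined to the start of an earlier one. They have no free ends and are degraded slowly.

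Of 2257 lncRNAs deposited, 1948 had an FPKM (sequenced fragments divided by transcript length and library size) above 0.5 in at least 3 of the 9 libraries and were tested with limma on log2(FPKM + 0.1). LncRNAs were called when the log2 difference was above 1 in size and the unadjusted p was under 0.05, the thresholds of the study. With the 6 LPS libraries as one group, 140 lncRNAs (7.19% of those tested) were called. Of these, 101 (5.18%) were higher and 39 (2%) were lower with LPS. A Benjamini-Hochberg adjusted p of 0.05 was passed by 2 lncRNAs (0.103%), LINC177 in the higher and ENSBTAT00000083638 in the lower direction (0.0513% each), and an unadjusted p of 0.05 by 251 (12.9%). The untreated and LPS values did not overlap for 125 lncRNAs (6.42%), 81 higher (4.16%) and 44 lower (2.26%). The share of calls that were higher was 72.1%, and it was 57.3% when libraries were centred on their medians and 55.7% after quantile normalization. The median log2 difference of all tested lncRNAs was 0.08.

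Sustained differences, called with the LPS libraries pooled and called in the same direction at 6 and at 12 hpi, were found for 48 lncRNAs (2.46%). There were 35 higher (1.8%) and 13 lower (0.667%), against 73 higher (3.75%) and 45 lower (2.31%) called at 6 hpi and 124 higher (6.37%) and 63 lower (3.23%) called at 12 hpi, and 0 lncRNAs were called in opposite directions at the 2 time points. The values did not overlap between untreated and LPS libraries for 26 of the 35 (1.33% of those tested) and for 11 of the 13 (0.565%). The remaining calls of the pooled comparison were called at 6 hpi only (27), at 12 hpi only (48) or at neither time point on its own (17). Among sustained lncRNAs, 0 had an unadjusted p under 0.05 for 12 against 6 hpi, compared with 157 of all tested lncRNAs (8.06%). The choice of members bears on this count, since each had to pass on both sides. Both time points used the same 3 untreated libraries, so their agreement is not independent evidence. The median log2 difference of the 35 higher lncRNAs was 1.64 at 6 hpi and 1.73 at 12 hpi, and that of the 13 lower ones was -1.45 and -1.42. These lncRNAs were scarce, and so were most of those tested. The mean FPKM over the 9 libraries was at most 1 for 1226 of the 1948 tested. Of the sustained ones, this was so for 21 of the 35 higher and 6 of the 13 lower. The median of the mean FPKM was 0.292 in untreated and 1.02 in LPS libraries for the higher ones, and 1.95 and 0.549 for the lower ones.

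The 3 untreated libraries were not alike. Untreated replicate 3 had 15456 circRNA reads, as recovered from the steps of its TPM values, against 3140 and 2334 in untreated replicates 1 and 2 and 6199 to 9806 in the LPS libraries. It was the highest of the 3 untreated libraries for 22 of the 35 sustained higher lncRNAs (62.9%) and the lowest for 9 of the 13 sustained lower ones (69.2%), compared with 35.5% and 33.2% of all tested lncRNAs, so its values lay nearest to LPS more often. Without untreated replicate 3, 218 lncRNAs were called, 101 were sustained and 36 passed the adjusted p. With replicate 3 as the sole untreated library, 55 were called and 31 were sustained, and 8 of the 48 sustained ones were among them. An untreated arm of 1 library has no spread of its own and is assumed to vary like the LPS libraries, so these counts describe that library and do not test the calls. LncRNA levels of untreated replicate 3 correlated with those of the LPS libraries at 0.68 to 0.718. Those of replicates 1 and 2 did so at 0.57 to 0.637, and LPS libraries with each other at 0.597 to 0.682. In the paper, untreated replicates 1 and 2 had the lowest share of high-quality bases (Q30) and of mapped reads among the 9 libraries. The part of depth or RNA quality in these differences was not tested.

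**Figure D1:**
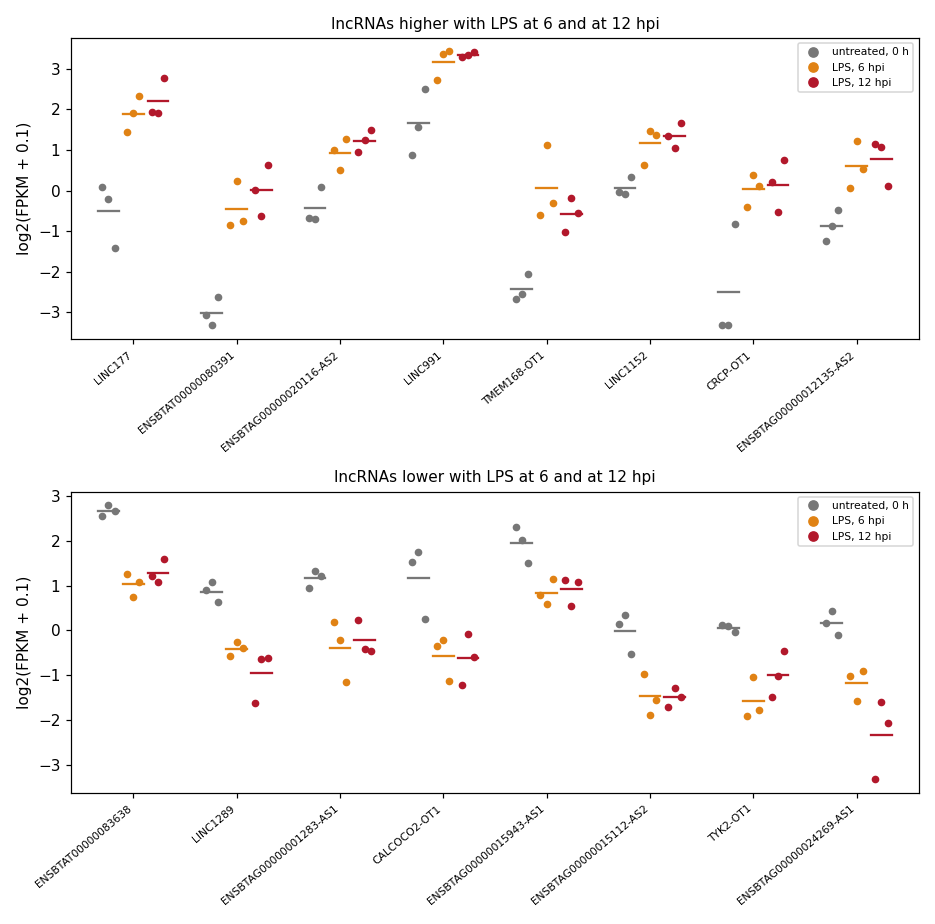
Levels of the leading sustained lncRNAs in each library, as log2(FPKM + 0.1), with 8 higher (top) and 8 lower (bottom) with LPS. Points are libraries, bars are means of the log2 values of 3 libraries, and for each of the 16 the untreated points lie apart from all 6 LPS points.

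Among the sustained higher lncRNAs, the clearest was LINC177, an intergenic lncRNA at chr11:8996988-8999441 (ARS-UCD1.2, as are all coordinates here). Its FPKM was 0.956, 0.767 and 0.278 in the untreated libraries, 2.61, 3.66 and 4.92 at 6 hpi and 3.74, 3.64 and 6.72 at 12 hpi. Every LPS library was above every untreated one, and the log2 difference was 2.56 ± 0.37 (SE; adjusted p = 0.0349). ENSBTAT00000080391, an annotated lncRNA on chromosome 17, was close to absent without LPS, at 0.0187, 0 and 0.0629, and reached 0.455, 1.08 and 0.499 at 6 hpi and 0.909, 0.55 and 1.45 at 12 hpi. Its log2 difference was 2.78 ± 0.46 (adjusted p = 0.065), so it passed the study's thresholds and not the adjusted one. LINC991 on chromosome 25 was the most abundant of the leading higher lncRNAs. Its FPKM was 1.75, 2.89 and 5.55 in untreated libraries, 6.51, 10.2 and 10.7 at 6 hpi and 9.65, 10 and 10.5 at 12 hpi. The groups did not overlap, with untreated replicate 3 the nearest to LPS. LINC991 is 1 of 4 transcripts of its gene and made up 28.3% of the gene's summed FPKM with LPS. The most abundant of the 4, LINC992, had a mean FPKM of 18.3 in untreated and 18.5 in LPS libraries.

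ENSBTAG00000020116-AS2, antisense to a gene on chromosome 23, had 0.53, 0.52 and 0.96 FPKM in untreated and 1.32 to 2.69 in LPS libraries, a log2 difference of 1.5 ± 0.28. LINC1152 on chromosome 3 had 0.883, 0.838 and 1.17 in untreated and 1.46 to 3.06 in LPS libraries. Both separated the groups by a narrow margin. ENSBTAG00000012135-AS2 on chromosome 17 had 0.326, 0.448 and 0.614 in untreated and 0.952 to 2.24 in LPS libraries, a log2 difference of 1.56 ± 0.34. Sense overlapping lncRNAs followed. TMEM168-OT1, in the gene of a transmembrane protein, had 0.0563, 0.0708 and 0.14 in untreated and 0.391 to 2.08 in LPS libraries. CRCP-OT1, in the gene of a subunit of RNA polymerase III, was listed at 0 in untreated replicates 1 and 2 and at 0.463 in replicate 3, and had 0.6 to 1.58 in LPS libraries. The log2 differences were 2.17 ± 0.47 for TMEM168-OT1 and 2.58 ± 0.57 for CRCP-OT1. CRCP-OT1 is 1 of 2 transcripts of its gene and made up 13.5% of the summed FPKM in untreated and 55.8% in LPS libraries. The sum differed by 0.63 (log2) and was not called. A sense overlapping lncRNA shares bases and strand with its gene, so a change of the gene's own RNA cannot be told apart from one of the lncRNA.

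In the lower direction, ENSBTAT00000083638 led. This lncRNA is in the Ensembl annotation and lies between positions 7675 and 8744 of a scaffold not placed on a chromosome (NKLS02001549.1). Its FPKM was 5.77, 6.83 and 6.24 in the untreated libraries, 2.3, 1.57 and 2.02 at 6 hpi and 2.2, 2 and 2.9 at 12 hpi. The untreated libraries agreed closely and all lay above the LPS ones, and the log2 difference was -1.51 ± 0.21 (adjusted p = 0.0349). It is the only transcript of its gene in the table. CALCOCO2-OT1 lies in the gene of NDP52, an autophagy receptor that brings ubiquitin-coated bacteria to autophagosomes. Its FPKM was 2.78, 3.28 and 1.09 in untreated and 0.332 to 0.848 in LPS libraries, with untreated replicate 3 the nearest to LPS, and its log2 difference was -1.78 ± 0.40. TYK2-OT1 lies in the gene of a Janus kinase that transmits interferon and interleukin-12 signals. It had 0.983, 0.965 and 0.876 in untreated, 0.167, 0.387 and 0.19 at 6 hpi and 0.255, 0.39 and 0.625 at 12 hpi. Its log2 difference was -1.34 ± 0.38, and the groups did not overlap.

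Among the leading 8 lower lncRNAs, 4 were antisense, as were 531 of the 1948 tested, and nothing is read from this count. ENSBTAG00000001283-AS1 had 1.82, 2.42 and 2.2 FPKM in untreated and 0.347 to 1.07 in LPS libraries. ENSBTAG00000015943-AS1 had 4.83, 3.95 and 2.73 in untreated and 1.36 to 2.11 in LPS libraries. Its log2 difference of -1.06 ± 0.25 was close to the threshold and was -0.88 without untreated replicate 1 and -0.995 without 12 hpi replicate 2, and it was called in neither fit. ENSBTAG00000015112-AS2 had 1, 1.17 and 0.594 in untreated and 0.172 to 0.405 in LPS libraries. ENSBTAG00000024269-AS1 had 1.03, 1.26 and 0.834 in untreated libraries, 0.392, 0.235 and 0.434 at 6 hpi and 0, 0.229 and 0.139 at 12 hpi. Its log2 difference was -1.34 at 6 hpi and -2.50 at 12 hpi, and the interval of 12 against 6 hpi, -2.34 to 0.02, contained 0. LINC1289, the intergenic one, is described below with its sister transcript. Of the 48 sustained lncRNAs, 37 kept the pooled call without each of the libraries in turn, and the leading 16 all did so except ENSBTAG00000015943-AS1.

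**Figure D2:**
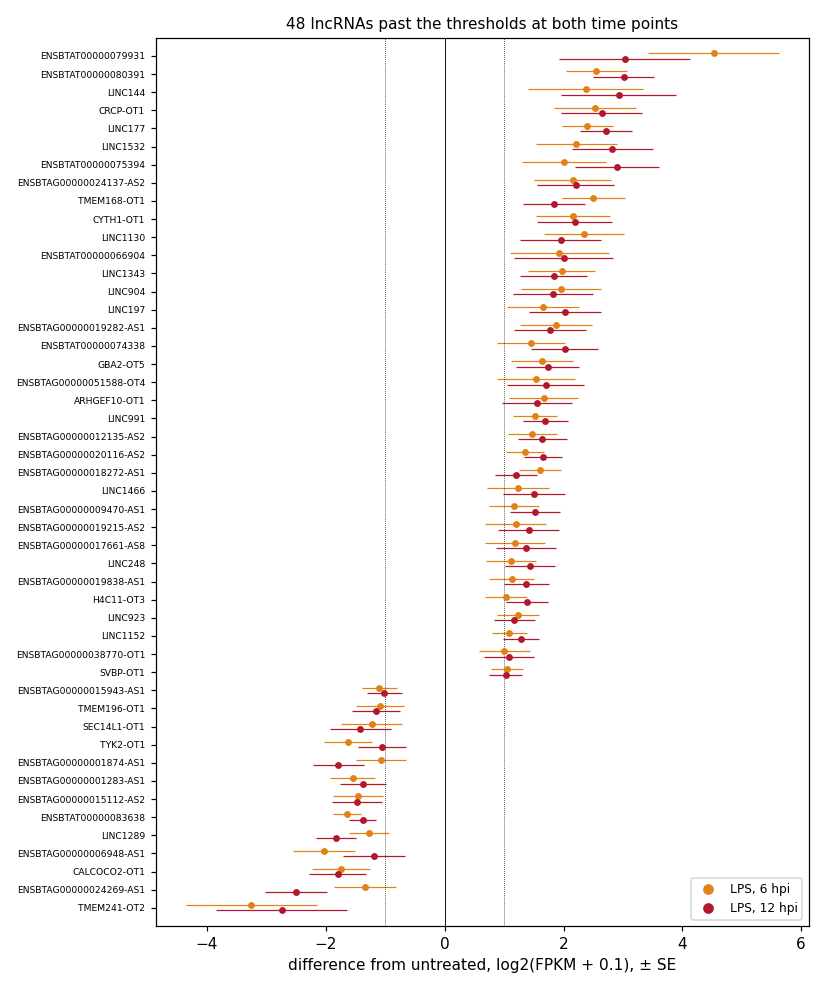
Log2 differences from untreated of the 48 sustained lncRNAs at 6 and at 12 hpi, with standard errors, ordered by the pooled difference. The dotted lines mark the log2 threshold of 1, which all points pass by the rule that chose them.

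By class, 41 of 521 intergenic lncRNAs tested were called higher and 8 lower (9.4% in all), and 12 and 1 were sustained. Among 531 antisense lncRNAs, 26 were higher and 15 lower (7.72%), with 9 and 6 sustained. Among 712 sense overlapping ones, 24 were higher and 14 lower (5.34%), with 9 and 5 sustained, and among 184 annotated ones 10 were higher and 2 lower (6.52%), with 5 and 1 sustained. These shares lay around the 7.19% over all types, and the differences between types were not tested. The median log2(FPKM + 0.1) of intergenic lncRNAs was -0.56 ± 0.06 (SD, n = 3) in untreated and -0.35 ± 0.07 (SD, n = 6) in LPS libraries, and that of antisense ones -0.40 ± 0.02 and -0.31 ± 0.05. Each had an exact permutation p of 0.0238, two-sided and the smallest that 3 against 6 libraries can give, and 0.131 after adjustment over the 11 library measures compared. The number of lncRNAs above 0.5 FPKM was 1409 ± 20 (SD, n = 3) and 1493 ± 63.7 (SD, n = 6; exact permutation p = 0.0476, adjusted p = 0.175). This difference of 84.3 rested on the limit chosen, and was 6.33 for lncRNAs above 0.1 FPKM (exact permutation p = 0.881) and 83.3 for those above 1 FPKM. No library measure passed the adjusted threshold.

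Many of the sustained calls were of 1 transcript among several of a gene. Of the 48, 29 were the only transcript of their gene in the table and 19 were not. When FPKM was summed over the transcripts of a gene, the sum was called for 4 of those 19 genes and was sustained for 2. Among the leading lncRNAs, it was not called for LINC991, CRCP-OT1, ENSBTAG00000012135-AS2, ENSBTAG00000015943-AS1 or ENSBTAG00000015112-AS2. For ENSBTAG00000020116-AS2 it was called and not sustained. The call on LINC177 is also of 1 transcript among several. LINC178 belongs to the same gene and starts slightly further on, at chr11:8997008-8999441. Its FPKM was 2.54, 2.64 and 4.93 in untreated libraries, 0 in all 3 libraries at 6 hpi, and 2.61, 4.58 and 0 at 12 hpi. LINC177 made up 16.5% of the gene's summed FPKM in untreated and 77.9% in LPS libraries, and the sum itself differed by 0.34 on the log2 scale (unadjusted p = 0.321). LINC178 was called lower pooled and lost the call in 7 of the 9 limma fits that left out 1 library, at an unadjusted p of 0.0588 to 0.0949.

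LINC144 and LINC145 have the same outer coordinates, chr10:30453290-30457261, and showed an exchange at 6 and at 12 hpi in all LPS libraries but 1. LINC144 was listed at 0 in all untreated libraries and in 6 hpi replicate 1, and at 0.876 and 1.32 in the other libraries at 6 hpi and 1.05, 0.614 and 0.436 at 12 hpi. LINC145 had 0.921, 0.997 and 0.818 in untreated libraries, 1.31 in 6 hpi replicate 1, and 0.00201 to 0.0267 in the other 5 LPS libraries. The library with LINC145 and no LINC144 among those with LPS was thus the same one. LINC144 took 0% of the summed FPKM of the gene in untreated and 75.8% in LPS libraries, while the sum differed by -0.03 (log2, unadjusted p = 0.928). LINC145 was among the lncRNAs that the study measured by qRT-PCR, and the primers are shown here because the exchange turns on which transcript they amplify. The sequences are those the study lists, in lower case, and whether they also match LINC144 was not tested.
LINC145 forward: ggcaggcagattctttac
LINC145 reverse: gttgataagcctacaggagac

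In a gene on chromosome 5, LINC1289 (chr5:54950079-54952124) had 1.76, 2.01 and 1.44 FPKM in untreated, 0.577, 0.735 and 0.662 at 6 hpi and 0.226, 0.539 and 0.555 at 12 hpi, a log2 difference of -1.55 ± 0.32. LINC1279 had 0.326, 0 and 1.36 in untreated, 1.22, 1.73 and 1.8 at 6 hpi and 1.22, 1.28 and 0.604 at 12 hpi. It was called higher pooled and not sustained, its groups overlapped, and it was not called without untreated replicate 1 (unadjusted p = 0.0557) or untreated replicate 2 (log2 difference 0.77). The sum over the 4 transcripts of the gene differed by -0.39 (unadjusted p = 0.23). Reads of transcripts that share exons are divided between them by the quantifying program, and an exchange between overlapping transcripts cannot be told apart here from a change in that division.

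**Figure D3:**
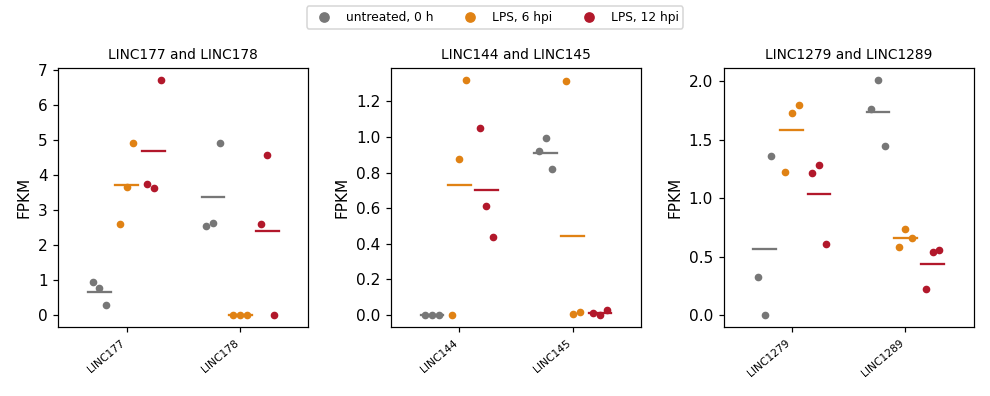
FPKM in each library of the 3 pairs of transcripts that share a gene and were called in opposite directions. Points are libraries and bars are means of 3 libraries. LINC177 and LINC144 are low or at 0 without LPS, where LINC178 and LINC145 are high, and in the pair LINC1279 and LINC1289 the latter falls without overlap.

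ENSBTAT00000079931, also measured by qRT-PCR in the study, was listed at 0 in all 3 untreated libraries and at 4.21, 1.41 and 1.78 at 6 hpi and 1.75, 0 and 2.83 at 12 hpi. Since 12 hpi replicate 2 was also at 0, the groups overlapped, and no fold change is given against a group at 0. It is 1 of 6 transcripts of its gene on chromosome 10 and made up 6.43% of the gene's summed FPKM with LPS. The most abundant of the others, ENSBTAT00000072565, had 34.9, 25.5 and 19.8 in untreated and 13.6 to 24.3 in LPS libraries and was not called, and the sum over the gene differed by -0.36 (log2, unadjusted p = 0.18), the opposite sign. The primers are those the study lists for this transcript, and whether they also match other transcripts of the gene was not tested.
ENSBTAT00000079931 forward: tcgtggcagggacagaaa
ENSBTAT00000079931 reverse: aagcggcaaggtgttagg

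Of the 10 lncRNAs with qRT-PCR primers, this was the only one with a sustained call. ENSBTAG00000011905-AS1, an abundant antisense lncRNA on chromosome 15, was called lower pooled, by -1.17 ± 0.38 on the log2 scale. Its FPKM was 43.1, 44.6 and 24 in untreated libraries, 28.5, 20.7 and 22.3 at 6 hpi and 9.48, 10.2 and 12.7 at 12 hpi. At 6 hpi the values straddled untreated replicate 3 and at 12 hpi all were below it. The log2 difference was -0.60 at 6 hpi, which was not called, and -1.74 at 12 hpi, and the difference between the time points was -1.14 (95% interval -1.73 to -0.54, unadjusted p = 0.00194, adjusted p = 0.344).
ENSBTAG00000011905-AS1 forward: cgaagcgcggagaagcta
ENSBTAG00000011905-AS1 reverse: tgcgaagtcgtgtggagga

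The other 7 qRT-PCR lncRNAs had no call in the pooled comparison. The paper took each of them from a comparison of single time points, which the pooled comparison does not repeat. Against untreated, RUNX1-OT3 was called higher and LINC819 lower at 6 hpi only. ENSBTAG00000054746-AS1, LINC1054 and ENSBTAG00000009752-AS9 were called higher at 12 hpi only. The mean log2 levels of RUNX1-OT3, LINC819, ENSBTAG00000054746-AS1 and LINC1054 differed by -4.44, 2.91, 3.05 and 3.12 (12 minus 6 hpi). None of these passed an adjusted p of 0.05 in the limma fit. For LINC819, 12 hpi replicate 1 (0.106 FPKM) lay close to 6 hpi replicate 3 (0.0854 FPKM). ENSBTAG00000009752-AS9 was listed at 0 in all untreated libraries, at 0, 0 and 0.39 at 6 hpi and at 1.39, 3.19 and 1.34 at 12 hpi. UBE3D-OT1 and ENSBTAG00000047213-OT3 did not pass the filter on low values. HOXB3-OT1, which lies in the HOXB cluster of developmental transcription factors, had 4.12, 3.11 and 5.79 FPKM in untreated, 7.66, 5.88 and 7.49 at 6 hpi and 12.7, 12 and 13.6 at 12 hpi. It was called pooled, by 1.15 ± 0.31, and at 12 hpi, and its difference of 0.71 at 6 hpi did not reach the threshold. Without untreated replicate 2 the pooled difference was 0.93 and was not called.

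Among abundant lncRNAs, 3 on chromosome 23 were called higher with LPS, 2 of them in histone genes. Histone genes are expressed mainly in S phase. H4C11-OT3, named here after its values were seen, was sustained and had 41.8, 38.9 and 106 FPKM in untreated, 92.4, 126 and 128 at 6 hpi and 166, 127 and 145 at 12 hpi. H2AC11-OT1 had 55.2, 47.2 and 107 in untreated and 104 to 196 in LPS libraries, and ENSBTAG00000052382-AS1 had 89.5, 73.8 and 200 in untreated and 173 to 312 in LPS libraries. The last 2 were called pooled, by 1.09 ± 0.27 and 1.08 ± 0.30, and at 12 hpi, and were not sustained. In all 3, untreated replicate 3 lay above the lowest LPS library. The difference of H4C11-OT3 was 0.95 without untreated replicate 2, 0.83 after quantile normalization and 0.28 against untreated replicate 3 alone, none of them called. H4C11-OT3 is 1 of 3 transcripts of its gene and made up 53.9% of the summed FPKM in untreated and 55.4% in LPS libraries. The sum was called and not sustained. The other transcripts, H4C11-OT1 and H4C11-OT2, were not called and varied widely between libraries. H4C11-OT1 had 35.4, 0 and 8.45 FPKM in untreated and 0 to 119 in LPS libraries. H4C11-OT2 had 0, 55.6 and 59.9 in untreated and 2.46 to 142 in LPS libraries. Histone genes are a family of near-identical copies, and the division of reads among them is uncertain. Of the other abundant lncRNAs, ENSBTAT00000084269 had 298, 283 and 265 in untreated and 240 to 336 in LPS libraries and was not called, nor was ENSBTAG00000050597-OT1, with 124, 114 and 147 in untreated and 142 to 181 in LPS libraries. ENSBTAT00000069275 had 16334 in untreated replicate 2, 1923 in 12 hpi replicate 1 and 0.333 to 7.27 in the other 7 libraries, so 1 library of either group held nearly all of its signal.

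Further sustained lncRNAs were chosen for mention after their values were seen. SVBP-OT1, in the gene of a small protein that binds vasohibins, had 4.57, 5.5 and 9.25 FPKM in untreated and 10.6 to 16 in LPS libraries, without overlap. Its log2 difference of 1.04 ± 0.23 stood at the threshold and was 0.83, 0.96 and 0.97 without untreated replicate 1, untreated replicate 2 and 6 hpi replicate 1, each below it. SVBP-OT1 is 1 of 6 transcripts of its gene and made up 31.3% of the summed FPKM in untreated and 45.4% in LPS libraries. The sum differed by 0.47 (log2) and was not called. ENSBTAT00000075394 on chromosome 27 was listed at 0 in all untreated libraries and at 0.108 to 0.767 in LPS libraries. ARHGEF10-OT1, 52586 bp away, had 0.112, 0.272 and 0.0338 in untreated and 0.258 to 0.991 in LPS libraries. These were the only pair of sustained lncRNAs of different genes within 100 kb of each other. TMEM241-OT2 had 0.819, 4.02 and 2.64 in untreated libraries, was listed at 0 in 3 LPS libraries and reached 1.09 in 6 hpi replicate 1, so the groups overlapped. Over all 2257 lncRNAs, 3 were listed at 0 in every untreated and above 0 in every LPS library (TUBA4A-OT2, LINC1368 and ENSBTAT00000075394), and 1, ENSBTAG00000030670-AS1, the reverse.

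Genes of LPS signalling and mammary function were looked up through the symbol of the host gene, which sense overlapping lncRNAs alone carry, so antisense, intergenic and annotated lncRNAs could not enter. Of 11 gene lists, 10 had a tested lncRNA with a listed gene as its host or within 100 kb of the host, 51 in all, and TYK2 was on none of them. By limma 0 of the 51 were sustained, against 2.46% of all lncRNAs tested, and with so few members nothing is read from this count. In the list of TLR4 and NF-kB genes, 0 of 4 were called, with a median log2 difference of 0.12, and 0 of 6 were called for cytokines, chemokines and complement (median -0.09), 0 of 4 for the interferon response (median -0.09) and 0 of 5 for mammary epithelial genes (median -0.24). For cell cycle and p53 genes 0 of 6 were called (median -0.03), and for PI3K-Akt and mTOR 0 of 5 (median -0.09). For fibroblast genes it was 0 of 2 (median 0.37) and for leukocyte genes 0 of 2 (median 0.84). All 5 mammary epithelial ones were transcripts in RUNX1. The leukocyte ones lie in MPZL2, near CD3E, and the fibroblast ones in UBE2V1 and SPATA2, near SNAI1. Those of the TLR4 and NF-kB list lie in EHBP1L1, SLC20A2 and PPP1R37, neighbours of listed genes. These counts and medians therefore do not describe the classes of genes that name the lists. In these 8 lists only RUNX1-OT4, in the gene of the transcription factor RUNX1, had an unadjusted p under 0.05, at 0.0209 and a log2 difference of 0.87. No tested lncRNA could be matched to the MHC list this way. In the Notch list 1 of 8 was higher (median -0.09). The MAPK list is described by 1 of its members. PPP6R2-OT1, near the p38 kinase genes MAPK11 and MAPK12, was called higher and had 0.0288, 0.00501 and 1.05 FPKM in untreated and 0.118 to 4.36 in LPS libraries. It is 1 of 2 transcripts of its gene and made up 5.86% of the summed FPKM in untreated and 26.4% in LPS libraries. The sum differed by 0.19 (log2) and was not called. The one called in the Notch list was RNF5-OT3, close to NOTCH4, which encodes a receptor. It had 0, 0 and 0.014 in untreated libraries, 1.4, 0.724 and 0.623 at 6 hpi and 0.102, 0.102 and 0.224 at 12 hpi. The groups overlapped for PPP6R2-OT1 and were apart for RNF5-OT3, and both lost the call in at least 3 of the fits that left out 1 library. For PPP6R2-OT1 the unadjusted p was 0.141 and 0.159 without untreated replicates 1 and 2, 0.0563 when 6 hpi replicate 2 was left out, and 0.0736, 0.0748 and 0.0548 for the omission of 12 hpi replicates 1, 2 and 3. For RNF5-OT3 it was 0.081, 0.0709 and 0.0568 without 6 hpi replicates 1, 2 and 3. The share of calls in these lists has to be read against the 7.19% of all lncRNAs.

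CircRNAs were tested on log2(TPM + 129.4), where TPM are junction reads scaled to the same total in every library and 129.4 the smallest value above 0. Of 3763 circRNAs deposited, 1586 were above 0 in at least 3 libraries and were tested, and 166 were above 0 in all 9. With the LPS libraries pooled, 102 (6.43%) were called, 70 higher (4.41%) and 32 lower (2.02%), and 8 (0.504%) passed the adjusted p, 7 higher (0.441%) and 1 lower (0.0631%). At 6 hpi 69 (4.35%) were higher and 32 (2.02%) lower, and at 12 hpi 79 (4.98%) and 24 (1.51%). Between 12 and 6 hpi 48 (3.03%) had an unadjusted p under 0.05. The share of calls that were higher was 68.6%, and 91.7% of 181 calls after centring libraries on their medians, which moved the median log2 difference of all circRNAs from 0.31 to 0.69. Sustained differences were found for 35 circRNAs (2.21%), 27 higher (1.7%) and 8 lower (0.504%). The values did not overlap for 10 of the 27 (0.631% of those tested) and 3 of the 8 (0.189%), and among all circRNAs for 30 (1.89%), 19 higher (1.2%) and 11 lower (0.694%).

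The depth of the untreated libraries moved with these calls. The smallest value that could be listed, 2 reads, was worth 637, 857 and 129 TPM in untreated replicates 1, 2 and 3 and 204 to 323 TPM in the LPS libraries. Of the 27 sustained higher circRNAs, 19 were listed at 0 in untreated replicate 1, 24 in replicate 2 and 2 in replicate 3, and 0 of them were above 0 in all 9 libraries. With every library thinned to 2305 reads, 27 circRNAs were called, 9 higher and 18 lower, 0 higher and 9 lower ones were sustained, and 0 of the 35 sustained at full depth were among them. With values below 857 TPM raised to it, an alternative chosen after seeing the data, 9 were called and 8 were sustained, 2 higher and 6 lower. Where LPS values lay near the smallest values listed in untreated replicates 1 and 2, higher levels could not be told apart from levels too low to be listed there. Not all lay so near. For novel_circ_0000221, at 0 in untreated replicate 2, the LPS values were 4042 to 7565 TPM.

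**Figure D4:**
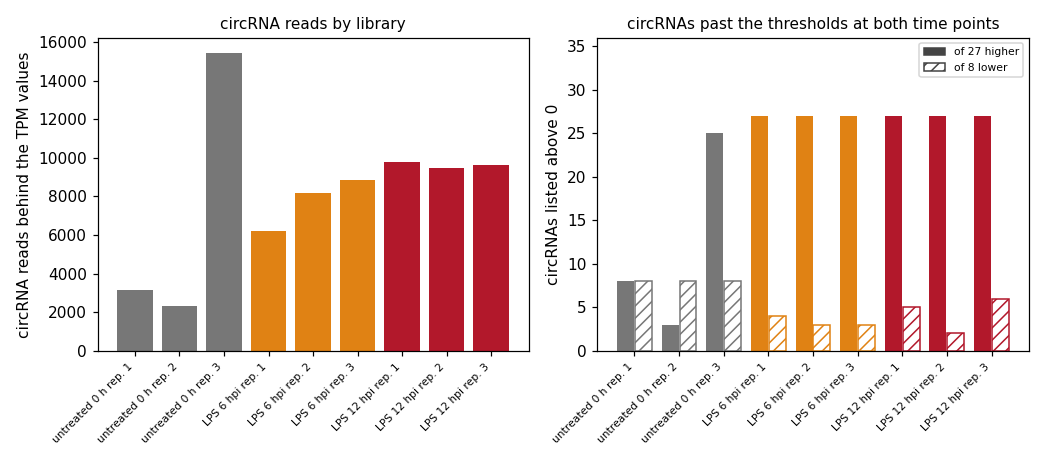
Left, circRNA reads behind the TPM values of each library. Right, how many of the 27 sustained higher (filled) and 8 sustained lower (hatched) circRNAs were listed above 0 in each library. The higher ones are listed in all LPS libraries, in 25 of 27 cases in the deep untreated replicate 3, and in 8 and 3 cases in the shallow replicates 1 and 2.

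The circRNAs carry numbers and no gene names in the files used here. Of the higher ones, novel_circ_0002071 had 637, 0 and 1229 TPM in untreated libraries, 2258, 2562 and 2821 at 6 hpi and 2040, 3371 and 1555 at 12 hpi. The reads behind these were 2, 0 and 19 in untreated and 14 to 32 in LPS libraries. It separated the groups, with a log2 difference of 2.28 ± 0.54 (adjusted p = 0.0102), and 0.88 against untreated replicate 3 alone. For novel_circ_0000625 the values were 1592, 0 and 2135 in untreated and 2196 to 3949 in LPS libraries, the log2 difference was 1.96 ± 0.46 (adjusted p = 0.0102), and without untreated replicate 2 it was 0.65 and not called. The smallest adjusted p belonged to novel_circ_0000221, with 3503, 0 and 5370 in untreated and 4042 to 7565 in LPS libraries, where the groups overlapped and the log2 difference was 2.23 with all libraries and 0.53 without untreated replicate 2. For novel_circ_0002369, with 0, 7712 and 3753 in untreated and 2739 to 4636 in LPS libraries, the direction turned from 1.33 to -0.48 without untreated replicate 1. In this fit each circRNA's own spread was replaced by the trend over all circRNAs, so a single 0 hardly widened its error, and without the trend 0 circRNAs passed the adjusted p and 133 were called by the study's thresholds.

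The 8 sustained lower circRNAs were all listed in each of the 3 untreated libraries. The choice of members bears on this, since a lower call needs untreated values above 0, so it says nothing about depth. The untreated libraries alone could meet the filter, and 5 of the 8 were above 0 in only 3 to 5 libraries. Of the 8, 2 were above 0 in all 9 libraries. The first, novel_circ_0003638, had 3822, 5570 and 3558 TPM in untreated libraries, 2581, 1952 and 790 at 6 hpi and 1224, 1896 and 2591 at 12 hpi. Its groups did not overlap, and its log2 difference was -1.25 ± 0.40 (adjusted p = 0.138) and -0.85 at equal reads, where it was not called. The second, novel_circ_0004830, had 4777, 5141 and 1035 in untreated and 732 to 1452 in LPS libraries, and its log2 difference of -1.43 ± 0.52 was -0.01 against untreated replicate 3 alone. With 637, 857 and 518 in untreated libraries and 0 in all 6 LPS libraries, novel_circ_0004684 was the only circRNA listed in every untreated and no LPS library, on 2, 2 and 8 reads.

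Abundant circRNAs had more reads and smaller differences. The most abundant, novel_circ_0000148, had 23248, 15853 and 16046 TPM in untreated and 15002 to 19277 in LPS libraries, a log2 difference of -0.08 ± 0.09. For novel_circ_0000898 it was -0.08 ± 0.11, with 15287, 16281 and 10417 in untreated and 12114 to 13712 in LPS libraries. Higher values were found for novel_circ_0002074, with 5414, 8997 and 8993 in untreated and 10005 to 13067 in LPS libraries, without overlap, a log2 difference of 0.53 ± 0.14 (adjusted p = 0.0359). Lower ones were found for novel_circ_0003598, with 12102, 12425 and 6146 in untreated, 5969, 5612 and 7221 at 6 hpi and 4589, 4530 and 3731 at 12 hpi, a log2 difference of -0.90 ± 0.20 (adjusted p = 0.00322). Here untreated replicate 3, the deepest library, lay within the range of the LPS libraries. Neither difference reached the log2 threshold of 1. The numbers of circRNAs that the libraries listed at equal reads were 507 ± 22 (SD, n = 3) in untreated and 518 ± 9.72 (SD, n = 6; exact permutation p = 0.381).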

How the data were processed

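RNA of the 9 libraries was depleted of ribosomal RNA and made into stranded libraries, which were sequenced on the Illumina PE150 platform. Per the paper, clean reads were mapped with HISAT2 to the bovine genome, transcripts were merged with Cuffmerge, and lncRNAs were quantified with StringTie and compared with Cuffdiff. Cuffdiff 2.1.1, DESeq 1.10.1, HISAT2 and, as build, ARS-UCD1.2 stand in the submitters' processing notes. The lncRNA values deposited by the authors are FPKM, and the circRNA values deposited by the authors are TPM, in which 100% of values are whole multiples of 1 read (within 0.05 reads), so no length entered them. Which program called the circRNAs is not stated in the paper or labels. The FPKM table holds no read counts, so no counting intervals were computed for lncRNAs, and the study's own mapped read totals were not used here. Between 2305 and 15314 circRNA reads were listed in a library. At 1 time point or more, the mean FPKM of each of the 2257 deposited lncRNAs reached 0.5, so the set was not blind to group.

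Groups followed the time points that the sample titles give. Log2(FPKM + 0.1), and log2(TPM + 129.4) for circRNAs above 0 in at least 3 libraries, were fitted in R 4.3.3 with limma 3.58.1 (statmod 1.5.0), with a trend, 6 LPS libraries against 3 untreated. The 6 and 12 hpi contrasts came from a fit with 3 time points. P-values were adjusted by Benjamini-Hochberg over all features. Library measures were compared by exact permutation (scipy 1.17.1). The fits were tested on simulated data.

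Named were up to 8 sustained lncRNAs and 5 sustained circRNAs in each direction by p without overlap between groups, those past the adjusted p, the 5 most abundant of each kind, the 10 qRT-PCR lncRNAs, called members of the gene lists, transcripts of 1 gene called in opposite directions, HOXB3-OT1, LINC177, LINC178 and ENSBTAT00000083638. The members and lists were chosen with earlier results of these data known. Lists were matched through host gene symbols, which sense overlapping lncRNAs alone carry, 548 of 550 of which were found in RefSeq (ARS-UCD2.0, used for names and neighbours only). Part of the results on the MAPK list is not reported here. Host genes named by an Ensembl identifier could not be matched to a symbol. Primer sequences come from the study's primer table. Alternatives covered pseudocounts, filters, scaling, the model, a replicate block, sums per gene, equal reads and each library left out.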

Additional observations from a re-analysis of the deposited data

Results flagged for a closer look

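Single libraries stood apart within the group of 6 LPS libraries by Dixon's test, which by chance flags about 1 in 20 groups of normally distributed values. The values here were not log-transformed, joined both time points and were for some features mostly at or near 0. The chance rate for them is therefore not known. At 6 hpi, replicate 1 was the low one for LINC991 (6.51 FPKM) and the high one for LINC145 (1.31 FPKM), replicate 2 was the high one for TMEM168-OT1 (2.08 FPKM) and replicate 3 for UBE3D-OT1 (0.178 FPKM). At 12 hpi, replicate 1 was high for ENSBTAT00000069275 (1923 FPKM), for ENSBTAT00000084269 (336 FPKM) and for the share of summed FPKM in the 10 most abundant lncRNAs (50.2%). Replicate 2 was high for ENSBTAG00000047213-OT3 (3.87 FPKM). Replicate 3 was the far one for novel_circ_0000885 (2177 TPM) and novel_circ_0000221 (4042 TPM).

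Other features differed between 12 and 6 hpi at an unadjusted p under 0.05 in the limma fit with 3 time points, none at an adjusted p of 0.05. The log2 difference of 12 minus 6 hpi was -4.44 for RUNX1-OT3 (adjusted p = 0.332), 2.91 for LINC819, -1.14 for ENSBTAG00000011905-AS1 (adjusted p = 0.344), 3.05 for ENSBTAG00000054746-AS1, 3.12 for LINC1054 and 3.5 for ENSBTAG00000009752-AS9. It was -2.02 for RNF5-OT3, 3.44 for LINC178, 0.86 for HOXB3-OT1 (adjusted p = 0.462), -0.53 for novel_circ_0003598 (adjusted p = 0.998) and 0.59 for novel_circ_0005073. For these a pooled LPS group averages over unequal time points.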

How the results depend on the processing

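The counts depended on the treatment of low values and on the untreated libraries. Called lncRNAs, with those higher and lower, then sustained ones likewise, were 41, 27, 14, 18, 14 and 4 at a pseudocount of 0.5 and 19, 12, 7, 7, 4 and 3 at 1. They were 68, 53, 15, 28, 21 and 7 with FPKM above 0.5 in at least 6 libraries. Without a filter 64 lncRNAs were lower and 23 sustained lower, and 50 circRNAs were lower, 16 sustained lower and 5 past the adjusted p. Centring gave 20 sustained lower lncRNAs, and 181 circRNAs, 166 higher and 15 lower, 28 past the adjusted p, 51 sustained higher and 1 lower. Quantile normalization gave 20 sustained lower lncRNAs and 1 past the adjusted p, and gene sums 1. With 3 time points in the fit 0 lncRNAs and 2 circRNAs passed the adjusted p, and without the trend 0 and 0. The robust fit passed 4 circRNAs.

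For circRNAs, the robust fit, the fit without the trend, the omission of untreated replicates 1 and 2 together and the raising of values to the detection limit were chosen after seeing the data. Without untreated replicates 1 and 2 together 55 lncRNAs were called, 49 higher, 6 lower, 0 past the adjusted p, 31 sustained and 3 sustained lower, and 17 circRNAs were called, 10 higher, 7 lower, 0 past the adjusted p and 5 sustained, 3 higher and 2 lower. Raising circRNA values to the detection limit left 9 called, 2 higher and 7 lower, 4 past the adjusted p, and 8 sustained, 2 higher. At equal reads 27 were called, 9 higher and 18 lower, 0 past the adjusted p, 9 sustained and 0 sustained higher, and the difference in the share of the 10 most abundant turned to 0.936 percentage points. A pseudocount 4 times smaller gave 13 past the adjusted p and 3 sustained lower, and one 4 times larger 53 called, 24 higher, 3 past the adjusted p, 14 sustained higher and 16 lower. With values in at least 6 libraries 0 passed the adjusted p and 3 were sustained lower.

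Leaving out 1 library at a time gave 95 to 218 lncRNAs, 71 to 162 higher, 20 to 56 lower, 0 to 36 past the adjusted p, and 35 to 101 sustained, 27 to 78 higher and 6 to 23 lower. For circRNAs it gave 97 to 216, 59 to 146 higher, 30 to 70 lower, 2 to 43 past the adjusted p, and 17 to 102 sustained, 13 to 75 higher and 2 to 27 lower. The highest counts were without untreated replicate 3. The library differences ranged from -24.0 to 7.35 for the share of the 10 most abundant lncRNAs, -554.5 to 5950 for circRNA reads, -0.992 to 0.153 for the share of the 10 most abundant circRNAs and -0.333 to 21.7 for circRNAs at equal reads.

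Directions turned for ENSBTAG00000054746-AS1 without untreated replicate 2 (-0.464, with -0.464 to 1.19 over the libraries left out) and without untreated replicates 1 and 2 (-0.10), and without both also for RUNX1-OT3 (-1.68), LINC819 (0.72), LINC1279 (-0.12) and novel_circ_0004181 (-0.0334). Gene sums turned ENSBTAT00000079931 (-0.36), LINC144 (-0.0303), LINC1279 (-0.39) and LINC178 (0.34), and novel_circ_0002369 turned without untreated replicate 1 (-0.478, with -0.478 to 2.48 over the libraries left out). The cause was not tested. LINC177 had an adjusted p of 0.0182 to 0.131 over 21 alternatives and ENSBTAT00000083638 one of 0.019 to 0.495.

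With a replicate block 135 lncRNAs were called, 49 sustained and 0 past the adjusted p, and 105 circRNAs, 33 sustained and 6 past it. Same-numbered libraries deviated with correlations of -0.075 to 0.073 for lncRNAs and -0.024 to 0.018 for circRNAs. Differently numbered ones gave -0.053 to 0.086 and -0.031 to 0.028. No pairing by number was visible, and correlations this near 0 cannot exclude one. A count model on circRNA reads and sums over circRNAs of a host gene were not run. The 3 untreated libraries and the shallow circRNA counts limit what could be detected.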
